A study of Mus musculus with 6 samples.

Results

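Fibronectin (*Fn1*) and the genes through which cells bind it and respond to it were compared between primary ovarian tumors grown in wild-type (WT) hosts and in *Tgm2* knockout hosts. The rule that chose the 10 genes uses their role and no measured value: the ligand *Fn1*, the integrin alpha subunits *Itga5*, *Itgav* and *Itga4*, the beta subunits *Itgb1*, *Itgb3* and *Itgb5*, the co-receptor *Sdc4*, and the kinase *Ptk2* and pseudokinase *Ilk* that act under the receptors. Earlier results of these data were known when the genes were chosen. All 10 are among the 20076 genes of the deposited table, and 10 of 10 passed the filter on low values. None of the 10 passed the test after adjustment (0 of 10), and *Itga4* was the single gene with an unadjusted p-value under 0.05 when all 6 tumors were used without a covariate. *Itga4* was also the single gene of the 10 whose fold change between the groups was larger than its spread within them, a comparison not given for all genes.

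Sequencing of bulk polyA-enriched RNA covered 3 primary tumors from WT C57BL/6 hosts and 3 from *Tgm2* knockout hosts, 6 weeks after implantation. All mice had received ID8 *Trp53*-/- *Brca1*-/- cells, which are mouse ovarian cancer cells without these tumor suppressors, by injection under the bursa of the ovary, and the mice of the study were 6 to 10 weeks old. The knockout is in the host, so mice of both genotypes carried the same cancer cells, which are not *Tgm2* knockout, and the comparison asks what loss of transglutaminase 2 (TG2) in the tumor microenvironment does to the tumor. The labels call the cell type cancer cells, but the samples are whole tumors: the mesothelial and ovarian marker *Wt1* had 13131 to 20641 normalized counts over the 6 tumors, beside *Col3a1*, a fibroblast collagen, with 22485 to 91251. In such bulk samples, fewer cells of a type and less RNA per cell cannot be told apart. The deposited values sum to between 32.3M and 37.7M normalized counts per tumor, and the step between low values gave an estimated 33.3M to 37.1M reads per tumor. Where 3 values are given for a group, they stand in the order of replicates 1 to 3. The labels do not say whether each replicate is a separate mouse or litter, so the p-values measure the spread between these tumors. The methods of the study describe bilateral injections, so tumors from both sides of the same mouse are possible.

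WT tumor 3 stood apart from the others. It had the highest level of the epithelial genes *Epcam* (8047 normalized counts, against 90.5 to 1307 in the other 5 tumors), *Cdh1* (6588) and *Pax8* (1905), and of *Ltf*, which encodes lactoferrin (52176, against 31.6 to 3967). These genes were singled out after their values were seen. In the list of 12 ovarian epithelial and mesothelial markers they come from, WT tumor 3 was not the highest throughout: *Krt8* and *Krt19* were highest in WT tumor 2, and *Wt1*, *Upk3b* and *Lrrn4* were lowest in WT tumor 3. The log2 fold change of each of the 10 genes is also given without this tumor.

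Fibronectin is a large glycoprotein that cells assemble into matrix fibrils. Its Arg-Gly-Asp sequence is the main binding site of integrin α5β1 (*Itga5* with *Itgb1*) and of the αv integrins αvβ3 and αvβ5 (*Itgav* with *Itgb3* or *Itgb5*), while a Leu-Asp-Val sequence in an alternatively spliced segment binds α4β1 (*Itga4* with *Itgb1*), the integrin by which leukocytes hold on to matrix and to endothelium. Syndecan 4, a heparan sulfate proteoglycan, binds the heparin-binding domains of fibronectin and acts beside the integrins in focal adhesions. TG2 on the cell surface binds fibronectin with high affinity and associates with β1 and β3 integrins and with syndecan 4, and so serves as an adhesion co-receptor, a role that does not need its crosslinking activity.

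The integrin binding sites of fibronectin are shown as coding sequence of GENCODE M21 on GRCm38, 5′ to 3′ on the minus strand, with the codons of the site in capitals. The Arg-Gly-Asp site lies in exon 30 of 46 at chr1:71606719-71606781, and the Leu-Asp-Val site in exon 40 of 46 at chr1:71597656-71597718. Both 3-residue sequences occur 2 times in the coded protein, and their other occurrences are not shown. Of 7 annotated *Fn1* transcripts that code for over 2000 residues, 7 hold the first and 3 hold the second, so that this binding site of α4β1 is present in a part of the transcripts. The deposited values are summed per gene and do not separate these transcripts.
Fn1 Arg-Gly-Asp site: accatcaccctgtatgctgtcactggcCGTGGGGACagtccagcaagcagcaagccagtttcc
Fn1 Leu-Asp-Val site: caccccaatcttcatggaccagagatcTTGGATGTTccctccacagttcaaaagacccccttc

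The beta subunits reach the cytoskeleton through an Asn-Pro-x-Tyr motif in their short cytoplasmic tail, the docking site of talin. Its codons are capitalised in the coding sequences of the 3 beta subunits. The receptors share the motif as residues, while the bases differ both within its codons and around them. Over the 48 bases, *Itgb1* and *Itgb3* are identical at 58.3% of positions, *Itgb3* and *Itgb5* at 60.4%, and *Itgb1* and *Itgb5* at 47.9%. In each gene the stretch is joined from the last 2 exons of the transcript, on the plus strand, within chr8:128726175-128732058 for *Itgb1*, chr11:104665621-104667115 for *Itgb3* and chr16:33947870-33948692 for *Itgb5*.
Itgb1 tail motif: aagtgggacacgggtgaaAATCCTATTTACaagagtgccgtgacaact
Itgb3 tail motif: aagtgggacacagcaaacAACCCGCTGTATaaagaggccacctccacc
Itgb5 tail motif: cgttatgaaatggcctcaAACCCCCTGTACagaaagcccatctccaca

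*Tgm2*, the gene disrupted in the host, was read first as a check of the labels. The gene is on the minus strand of chromosome 2 (158116402 to 158146436). The WT tumors held 14978, 12155 and 13180 normalized counts and the knockout tumors 5853, 6071 and 8157, so each knockout tumor lay below each WT tumor and none was near 0. The log2 fold change was -1.02 (95% interval -1.52 to -0.51), with an adjusted p of 0.391 from limma over 19667 genes. The two-sided exact permutation test gave p = 0.1, the smallest value that 3 tumors against 3 allow. The transcripts left in the knockout tumors can come from the cancer cells or from parts of the host gene outside its deletion, which cannot be told apart in gene-level values. Which part was deleted is not given in the sources used here.

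Across all genes tested, 20 (0.102%) were called in the higher direction, meaning higher with the knockout, and 0 (0%) in the lower direction at an adjusted p under 0.05 and an absolute log2 fold change over 1. Without adjustment or fold limit, a p under 0.05 was met by 668 higher genes (3.4%) and 469 lower genes (2.38%). The groups did not overlap for 5.18% of genes in the higher direction and 5.33% in the lower direction. Of the 10 fibronectin and receptor genes, 0 were called in either direction, 1 had an unadjusted p under 0.05 (*Itga4*, higher) and 2 did not overlap between the groups (*Itga4*, higher, and *Ilk*, lower). Their median log2 fold change was -0.17, beside -0.03 over all genes, and it was 0.12 without WT tumor 1 and -0.03 without knockout tumor 1. With 7 negative and 3 positive values, their signs were mixed, as were those of all genes, of which 47.3% were positive.

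*Fn1* (chromosome 1, 71585520 to 71653200) had the widest range of the 10 genes among WT tumors. The WT tumors held 49992, 25235 and 12656 normalized counts and the knockout tumors 18055, 26972 and 26107. WT tumor 1 was the highest and WT tumor 3 the lowest of the 6, and the 3 knockout tumors all lay between them. The ratio of highest to lowest was 3.95 in WT and 1.49 in knockout tumors, while the fold between the groups was 1.08. With WT tumor 3 left out, the ratio between the other WT tumors was 1.98. The group means were 29294 ± 18996 and 23712 ± 4918 (SD, n = 3 tumors per group). The log2 fold change was -0.11 (95% interval -1.20 to 0.98, adjusted p = 0.980 from limma), an interval wide enough to hold a change of 1 in the lower direction. It was 0.39 without WT tumor 1 and -0.61 without WT tumor 3, so its sign changed when 1 WT tumor was left out.

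**Figure D1:**
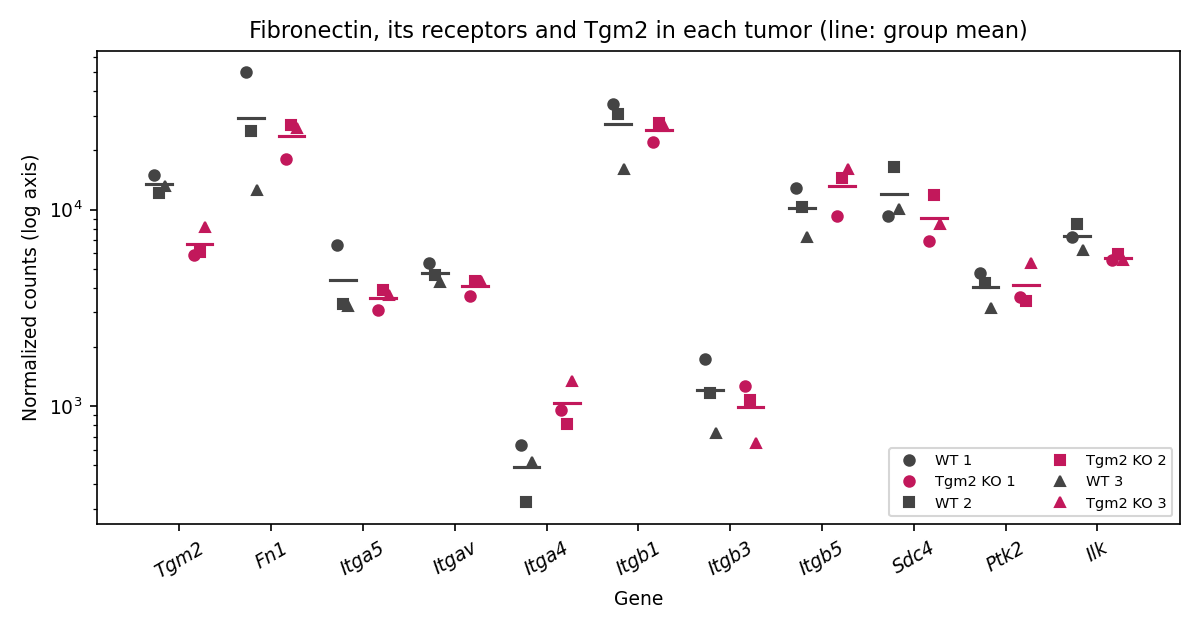
Normalized counts (log axis) of *Tgm2* and the 10 fibronectin and receptor genes in each of the 6 tumors, with WT tumors in grey, *Tgm2* knockout tumors in pink, the replicate number as the shape and the group mean as a line. The groups are apart for *Tgm2*, *Itga4* and *Ilk* and overlap for the other genes, and the points of *Fn1* are spread from 12656 to 49992 among the WT tumors.

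The alpha subunits decide which ligand an integrin binds. *Itga5* (chromosome 15, 103344286 to 103366763), the alpha subunit of the classical fibronectin receptor, had 6613, 3309 and 3232 normalized counts across the WT tumors and 3074, 3889 and 3662 across the knockout tumors. WT tumor 1 was far above the rest, and the other 5 tumors lay within 3074 to 3889. On the log2 scale the difference was -0.23 (95% interval -0.90 to 0.44, adjusted p = 0.928 from limma), and 0.11 without WT tumor 1. *Itgav* (chromosome 2, 83724397 to 83806916), the alpha subunit of αvβ3 and αvβ5, was the steadiest of the 10 genes between tumors. It had 5370, 4661 and 4269 normalized counts across the WT tumors and 3618, 4322 and 4317 across the knockout tumors, a range of 1.26-fold in WT and 1.19-fold in knockout tumors. Its log2 fold change was -0.22 (95% interval -0.65 to 0.21, adjusted p = 0.901 from limma), an interval that leaves out a change of 1 in either direction. It was -0.13 without WT tumor 1, -0.14 without knockout tumor 1 and -0.42 with the mean of adipocyte markers as a covariate. That covariate was itself higher in the knockout group, so fits that use it cannot separate it from genotype.

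*Itga4* (chromosome 2, 79255426 to 79333123), the alpha subunit of the leukocyte integrins α4β1 and α4β7, had the largest difference of the 10 genes. The WT tumors held 634, 325 and 519 normalized counts and the knockout tumors 953, 811 and 1336. Each knockout tumor lay above each WT tumor, with a gap from 634 to 811 between the groups, and knockout tumor 3 was the highest. The means were 493 ± 156 in WT and 1033 ± 272 in knockout tumors (SD, n = 3 tumors per group). The log2 fold change was 1.09 (95% interval 0.37 to 1.81), and limma gave an unadjusted p of 0.0082 and 0.649 after adjustment over all genes, so *Itga4* did not pass. The two-sided exact permutation test gave p = 0.1, the smallest it can give here. Without WT tumor 3 the log2 fold change was 1.15, and it was 0.82 or more in each fit that left out 1 tumor.

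The beta subunits carry the signal into the cell. *Itgb1* (chromosome 8, 128685654 to 128733200), the partner of both *Itga5* and *Itga4*, had 34559, 30780 and 16170 normalized counts across the WT tumors and 21987, 27724 and 26624 across the knockout tumors. WT tumor 3 was the lowest and WT tumors 1 and 2 the highest, with the knockout tumors between them. The knockout tumors also lay between WT tumors 1 and 3 for *Fn1*, but there knockout tumors 2 and 3 were above WT tumor 2. For *Itgb1* the log2 difference between the groups was -0.03 (95% interval -0.80 to 0.75, adjusted p = 0.993 from limma). *Itgb3* (chromosome 11, 104608000 to 104670476), known from platelets, osteoclasts and activated endothelium, had 1747, 1167 and 730 normalized counts across the WT tumors and 1271, 1070 and 647 across the knockout tumors. These overlapped, with a log2 fold change of -0.25 (95% interval -1.10 to 0.59, adjusted p = 0.937 from limma). *Itgb5* (chromosome 16, 33829665 to 33949338), which pairs with αv to bind vitronectin and other Arg-Gly-Asp ligands, had 12866, 10284 and 7254 normalized counts across the WT tumors and 9309, 14417 and 16044 across the knockout tumors. The 2 highest tumors were knockout tumors 2 and 3, while knockout tumor 1 lay below 2 of the WT tumors. Its log2 difference was 0.39 (95% interval -0.30 to 1.08, adjusted p = 0.897 from limma), and 0.17 without WT tumor 3. With the mean of adipocyte markers as a covariate the sign turned (-0.17).

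*Sdc4* (chromosome 2, 164424247 to 164443887) had 9295, 16448 and 10073 normalized counts across the WT tumors and 6930, 11872 and 8410 across the knockout tumors. WT tumor 2 was the highest and knockout tumor 1 the lowest, and the groups overlapped. The difference on the log2 scale was -0.38 (95% interval -1.07 to 0.30, adjusted p = 0.897 from limma), and -0.13 without WT tumor 2. With the mean of adipocyte markers as a covariate the difference was -1.46 (adjusted p = 0.490 from limma). *Ptk2* (chromosome 15, 73205102 to 73423280) encodes focal adhesion kinase, which is activated when integrins cluster on fibronectin. It had 4754, 4214 and 3175 normalized counts across the WT tumors and 3587, 3424 and 5344 across the knockout tumors, with a log2 fold change of 0.02 (95% interval -0.55 to 0.58, adjusted p = 0.995 from limma). *Ptk2* was the single gene of the 10 with a wider range among knockout than among WT tumors.

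*Ilk* (chromosome 7, 105736592 to 105742925) encodes integrin-linked kinase, a pseudokinase that joins β1 and β3 tails to actin with the PINCH and parvin proteins. The WT tumors held 7217, 8473 and 6261 normalized counts and the knockout tumors 5568, 5929 and 5571. Each knockout tumor lay below each WT tumor, and the knockout tumors were within 1.06-fold of each other. The means were 7317 ± 1109 and 5689 ± 207 (SD, n = 3 tumors per group). The log2 fold change was -0.35 (95% interval -0.80 to 0.09, adjusted p = 0.889 from limma), with an exact permutation p of 0.1, the smallest possible. The range among WT tumors (1.35-fold) was larger than the fold between the groups (1.28).

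**Figure D2:**
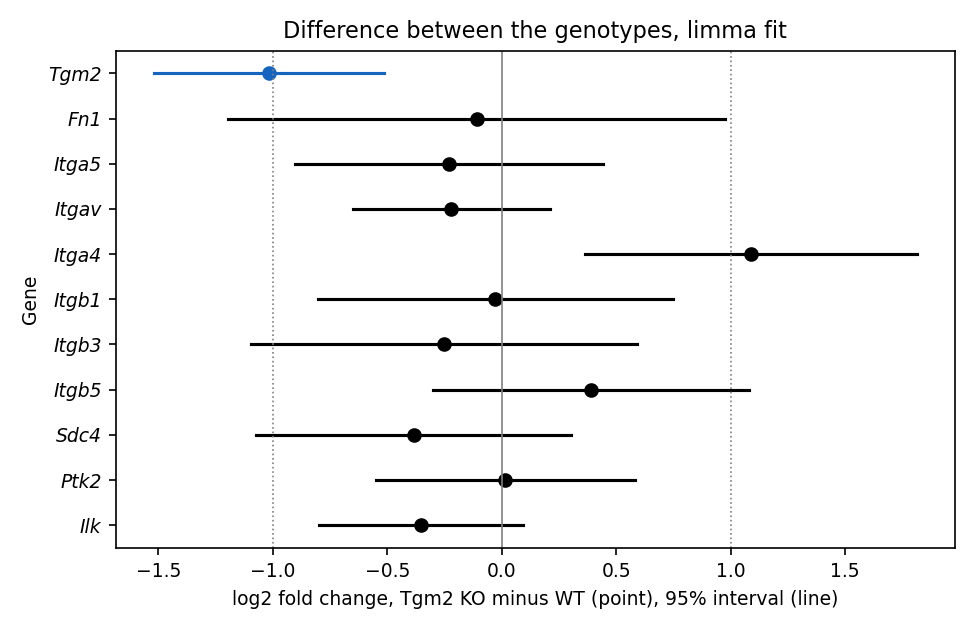
Log2 fold change of *Tgm2* (blue) and the 10 genes (black), *Tgm2* knockout minus WT, as a point with its 95% interval from limma as a line, with dotted lines at -1 and 1. The intervals of *Tgm2* and *Itga4* leave out 0, those of the other 9 genes hold it, and neither gene passed after adjustment.

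For 9 of the 10 genes the spread within a group was larger than the difference between the groups, with *Itga4* as the exception. The share of all genes for which this holds is not given here. The intervals of 5 genes (*Itga5*, *Itgav*, *Itgb1*, *Ptk2* and *Ilk*) lay wholly between -1 and 1. The others reached past 1 in size on at least 1 side, so 3 tumors per group left a change of that size within the interval for them. With WT tumor 3 left out, the log2 fold changes were -0.41 for *Itga5*, -0.30 for *Itgav*, -0.48 for *Sdc4*, -0.37 for *Itgb1*, -0.57 for *Itgb3*, -0.15 for *Ptk2* and -0.46 for *Ilk*, and the median of the 10 genes was -0.39. In that fit *Ilk* also had an unadjusted p under 0.05 (0.0477 from limma), beside *Itga4*, and 0 genes passed adjustment.

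In 8 of the 10 genes the groups overlapped, with the highest or lowest values in tumors of either genotype. WT tumor 1 was the highest of the 6 in 5 genes (*Fn1*, *Itga5*, *Itgav*, *Itgb1* and *Itgb3*), and WT tumor 3 was the lowest in 4 (*Fn1*, *Itgb1*, *Itgb5* and *Ptk2*). Knockout tumor 1 was also the lowest in 4 (*Itga5*, *Itgav*, *Sdc4* and *Ilk*), and knockout tumor 2 was never at either end. The ratio of highest to lowest was larger among WT than among knockout tumors in 9 of the 10 genes. Over the 17379 genes above 0 in all 6 tumors, 60.7% also had the wider range among WT tumors. With WT tumor 3 left out, the ratio was larger among the other 2 WT tumors in 5 of the 10 genes (*Fn1*, *Itga5*, *Itga4*, *Sdc4* and *Ilk*) and in 30.9% of these genes, where 2 tumors are set against 3.

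**Figure D3:**
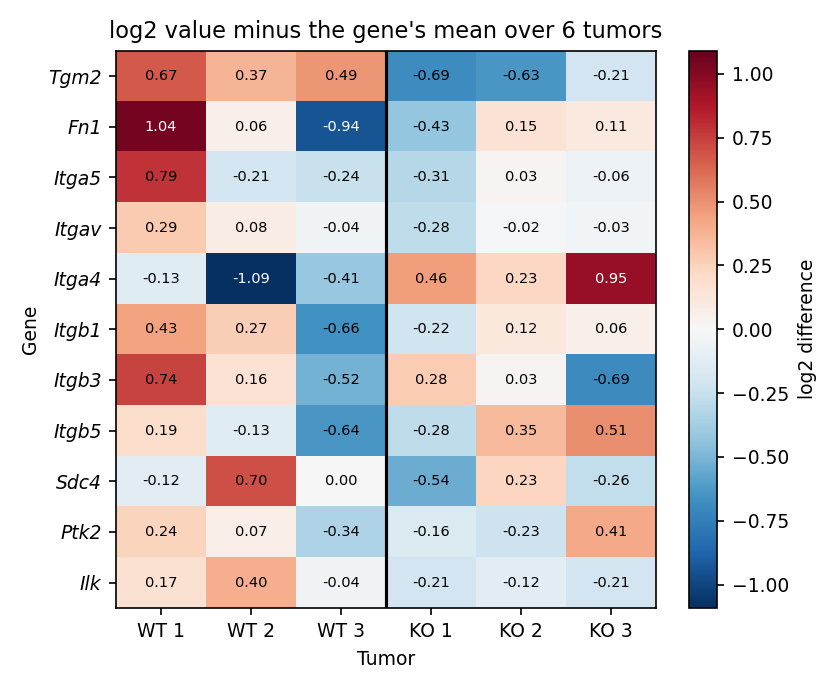
Difference of each tumor's log2 value from the gene's mean over the 6 tumors, for *Tgm2* and the 10 genes (rows) in each tumor (columns), with red above and blue below the mean. WT tumor 1 is above the mean for *Fn1* (1.04), *Itga5* (0.79) and *Itgb3* (0.74), WT tumor 3 is below it for *Fn1* (-0.94) and *Itgb1* (-0.66), and in the row of *Itga4* the 3 WT tumors are below and the 3 knockout tumors above it.

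Likeness to *Fn1* was measured as Pearson's r of log2 values over the 6 tumors, as a description without a test. *Itgb1* was the closest of the other 9 genes (r = 0.934), followed by *Itga5* (0.869) and *Itgav* (0.747). *Itga4* (0.0563) and *Sdc4* (0.111) were the least alike. With WT tumor 3 left out, over 5 tumors, r was 0.890 for *Itgb1*, 0.970 for *Itga5* and 0.936 for *Itgav*, and was lower than over 6 tumors for *Itgb5* (0.424, against 0.715), *Ptk2* (0.476, against 0.675) and *Itgb3* (0.449, against 0.617). The value of *Itga4* turned negative (-0.205). Among 12983 genes with a mean of at least 100 normalized counts the median r was 0.0654, and 167 (1.29%) had an r over 0.9. The 5 genes nearest to *Fn1* were *Tmem88* (0.990), *Klhl30* (0.985), *Il4ra* (0.985), *Fbln2* (0.980) and *Prg4*, which encodes lubricin (0.978). *Fbln2* encodes fibulin 2, a matrix protein that binds fibronectin, and had 23092, 12283 and 7627 normalized counts across the WT tumors and 9289, 15405 and 15031 across the knockout tumors. *Il4ra*, the receptor chain shared by interleukin 4 and interleukin 13, had 10678, 7189 and 5127 across the WT tumors and 6399, 7359 and 6902 across the knockout tumors. All points share the same 6 libraries and one scaling per library.

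Levels of different genes were compared per kilobase of the principal transcript. In normalized counts per kilobase, averaged over the 2 groups, the order was *Itgb1*, *Sdc4*, *Ilk*, *Itgb5*, *Fn1*, *Ptk2*, *Itga5*, *Itgav*, *Itgb3* and *Itga4*, from 6896 down to 78.1. The ranges of neighbours over the 6 tumors did not overlap in 2 places, between *Fn1* (3187) and *Ptk2* (924), and between *Itgav* (627) and *Itgb3* (191). All the other neighbours overlapped in range, although *Itgb1* was above *Sdc4*, and *Itga5* above *Itgav*, in 6 of 6 tumors. The level of *Itga4* was 50.4 per kilobase in WT and 106 in knockout tumors, the lowest of the 10 genes in either group.

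*Itgb1* made up 61.8% ± 4.85 of the summed beta subunit level per kilobase in WT and 55.0% ± 4.32 in knockout tumors (SD, n = 3 tumors per group), with overlapping groups and a two-sided exact permutation p of 0.2. Among the alpha subunits that pair with *Itgb1*, *Itga5* held 11.0% ± 1.52 in WT and 11.4% ± 2.05 in knockout tumors (exact permutation p = 0.7, n = 3 tumors per group). The largest share belonged to *Itga6*, a laminin receptor subunit, with 54.4% in WT and 51.3% in knockout tumors. The share of *Itga4* was 0.548%, 0.457% and 0.714% across the WT tumors and 1.42%, 1.28% and 1.66% across the knockout tumors. These shares did not overlap (exact permutation p = 0.1, the smallest possible with n = 3 tumors per group), as the values of *Itga4* themselves did not. The ratio of *Itgb5* to *Itgb3* per kilobase was 13.0, 15.5 and 17.5 in WT tumors and 12.9, 23.7 and 43.7 in knockout tumors, with overlapping groups (exact permutation p = 0.4).

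**Figure D4:**
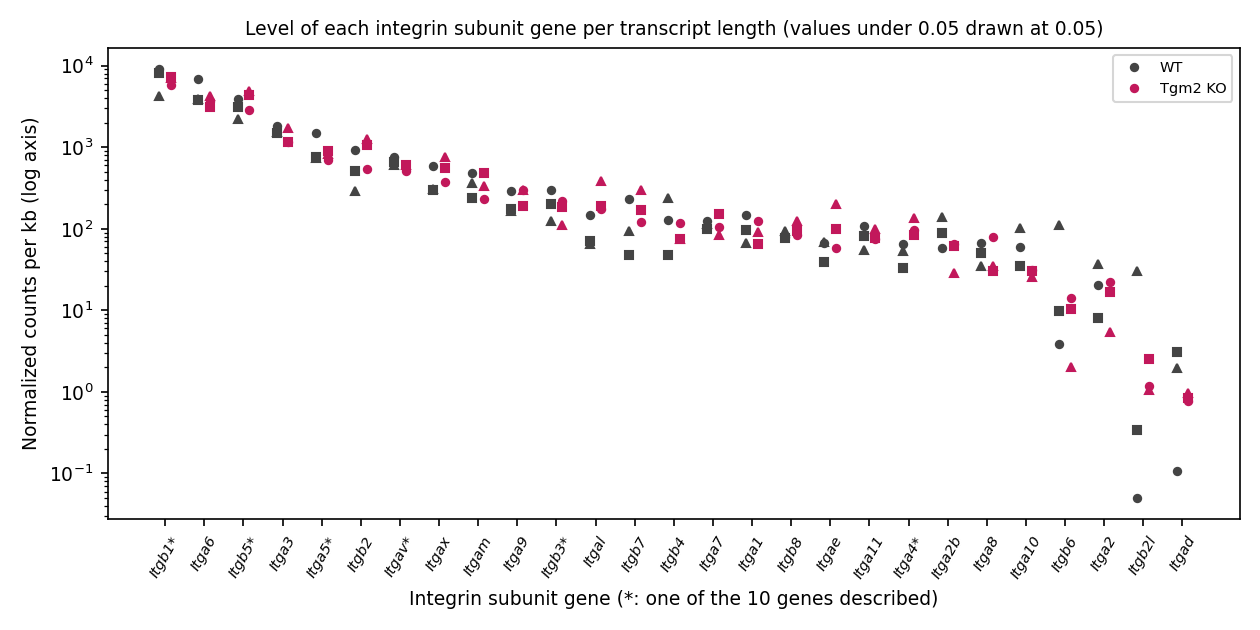
Normalized counts per kilobase of transcript (log axis) of each integrin subunit gene of the table in each tumor, WT in grey and *Tgm2* knockout in pink, ordered by the mean, with the genes described here starred and values under 0.05 drawn at 0.05. *Itgb1* is the most abundant subunit, *Itga6* lies above the starred alpha subunits, and *Itga4* is the least abundant starred gene.

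Other integrin subunits were counted as a list. Of 15 other alpha subunits, 0 were called in either direction, 1 was higher and 1 lower at an unadjusted p under 0.05, and their median log2 fold change was -0.12. The higher gene was *Itgal*, the alpha subunit of LFA-1 on leukocytes, with 762, 366 and 334 normalized counts across the WT tumors and 904, 981 and 2013 across the knockout tumors. Its log2 fold change was 1.42 (adjusted p = 0.649 from limma), and as for *Itga4* the groups did not overlap. The lower gene was *Itga10*, a collagen receptor subunit, with a log2 difference of -1.03 (limma adjusted p = 0.827), and -0.64 without WT tumor 3, its highest tumor. The 2 most abundant genes, the laminin receptor subunits *Itga6* and *Itga3*, had log2 fold changes of -0.35 and -0.27 with overlapping groups. Of 6 other beta subunits, 0 were called and 0 had an unadjusted p under 0.05. The leukocyte subunits *Itgb2* and *Itgb7* had log2 fold changes of 0.79 and 0.84, and *Itgb8*, a partner of αv, of 0.26, all with overlapping groups. Without WT tumor 3 the value of *Itgb2* was 0.38. *Itgb7*, the second partner of *Itga4*, had 621, 129 and 254 normalized counts across the WT tumors and 322, 457 and 800 across the knockout tumors.

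Of 37 other integrin ligands tested, 0 were called, 2 were higher and 2 lower at an unadjusted p under 0.05, and the median log2 fold change was 0.01. *Spp1*, which encodes the Arg-Gly-Asp ligand osteopontin, was the most abundant and had a log2 fold change of 0.01, and its groups overlapped. *Mfge8*, a ligand of αvβ3 and αvβ5 on apoptotic cells, had -0.20. Without WT tumor 3 these values were -0.38 and -0.49. *Icam1*, a ligand of leukocyte β2 integrins, had 6393, 6425 and 4489 normalized counts across the WT tumors and 2962, 3904 and 3920 across the knockout tumors, without overlap. Its log2 fold change was -0.67 (adjusted p = 0.736 from limma). *L1cam*, an adhesion molecule that also binds integrins, was lower without overlap at a low level, 74.4 to 155 in WT and 22.8 to 49.4 in knockout tumors (log2 fold change -1.76, adjusted p = 0.714 from limma).

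Among 11 other syndecans and heparan sulfate proteoglycans, 0 were called, and 1 was higher and 0 lower at an unadjusted p under 0.05. That gene was *Gpc3* (glypican 3), with 335, 362 and 225 normalized counts across the WT tumors and 1523, 599 and 926 across the knockout tumors, without overlap (log2 fold change 1.65, adjusted p = 0.451 from limma). The matrix proteoglycans *Hspg2* (perlecan) and *Agrn* (agrin) and the abundant *Gpc1* had log2 fold changes of -0.13, -0.54 and -0.23 with overlapping groups. Without WT tumor 3 *Agrn* was at -0.35 and *Gpc1* at -0.44. Of 59 adhesion adaptors, kinases and GTPases, 0 were called, 1 was higher and 0 lower at an unadjusted p under 0.05, and the median was 0.13. The higher gene was *Cav1*, which encodes the coat protein of caveolae, with 3766, 3689 and 1477 normalized counts across the WT tumors and 5468, 7786 and 5441 across the knockout tumors (log2 fold change 1.17, adjusted p = 0.716 from limma, and 0.72 without WT tumor 3, its lowest tumor). *Pik3r1*, a regulatory subunit of PI3-kinase, had a log2 difference of 0.55, and its groups overlapped. The most abundant adaptors, *Flna* (filamin A) and *Tns3* (tensin 3), had -0.55 and 0.34. Of 9 other surface partners of TG2, 0 were called and 1 had an unadjusted p under 0.05, *Pdgfra*, a receptor found on fibroblasts (log2 fold change 0.70, adjusted p = 0.821 from limma). *Adgrg1*, *Lrp1* and *Kdr* had log2 fold changes of -0.02, 0.26 and 0.73 with overlapping groups, and *Kdr* was at 0.46 without WT tumor 3.

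Markers of cell types that make or bind fibronectin are given beside *Fn1*. The 14 fibroblast markers summed to 294102, 183713 and 96516 normalized counts across the WT tumors and 229321, 268715 and 254736 across the knockout tumors, with 0 of 14 called and 0 at 0 in any tumor. As for *Fn1*, WT tumor 1 had the highest sum and WT tumor 3 the lowest. The sums of other integrin ligands, other heparan sulfate proteoglycans and adhesion adaptors had these same extremes. Those of other alpha subunits, other beta subunits and other TG2 partners did not. Of the single fibroblast markers, *Col1a1*, *Col1a2* and *Pi16* were highest in WT tumor 1, and the others were highest in other tumors. Of the 14 log2 fold changes, 13 were positive and 1 was negative (median 0.49), beside -0.11 for *Fn1*. The most abundant gene, *Col3a1*, had 89267, 59808 and 22485 across the WT tumors and 61727, 91251 and 70138 across the knockout tumors. The log2 difference of *Col3a1* was 0.57, and 0.01 without WT tumor 3. The 10 smooth muscle and pericyte markers, led by *Acta2*, summed to 87989, 74651 and 50040 across the WT tumors and 68904, 33832 and 19583 across the knockout tumors, with 0 called and 2 lower without overlap. The 13 endothelial markers, led by *Pecam1*, summed to 12338 to 16234 in WT and 14712 to 16475 in knockout tumors, with 0 called. The part of these cell types in the values of *Fn1* was not tested.

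Markers of leukocytes are given beside *Itga4*. The 12 T and NK cell markers summed to 2187, 1500 and 1275 normalized counts across the WT tumors and 2270, 2620 and 4133 across the knockout tumors. The sums did not overlap, and WT tumor 1 was nearly as high as knockout tumor 1. Of the 12 genes 0 were called, 4 were higher without overlap, 0 were at 0 in any tumor, and the most abundant, *Trac*, had 461, 291 and 195 across the WT tumors and 460, 377 and 689 across the knockout tumors. The 13 B and plasma cell markers summed to 16149, 17923 and 13080 across the WT tumors and 60863, 83627 and 88625 across the knockout tumors. Of these 13 genes 4 were called higher, 11 were higher without overlap and 0 were at 0, and *Jchain*, which joins the chains of secreted antibody, was the most abundant (2068 ± 544 in WT and 57433 ± 13317 in knockout tumors, SD, n = 3 tumors per group). With the mean of adipocyte markers as a covariate, 0 genes of the whole table were called, these 4 included. All 25 adipocyte markers had positive log2 fold changes themselves (median 1.63), so that fit cannot separate them from genotype. The 15 macrophage markers, led by *Lyz2*, summed to 90443, 68533 and 45551 across the WT tumors and 44238, 139121 and 99282 across the knockout tumors, with 0 called and 0 at 0 in any tumor. These sums overlapped between the groups. The part of these cells in the values of *Itga4* was not tested.

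**Figure D5:**
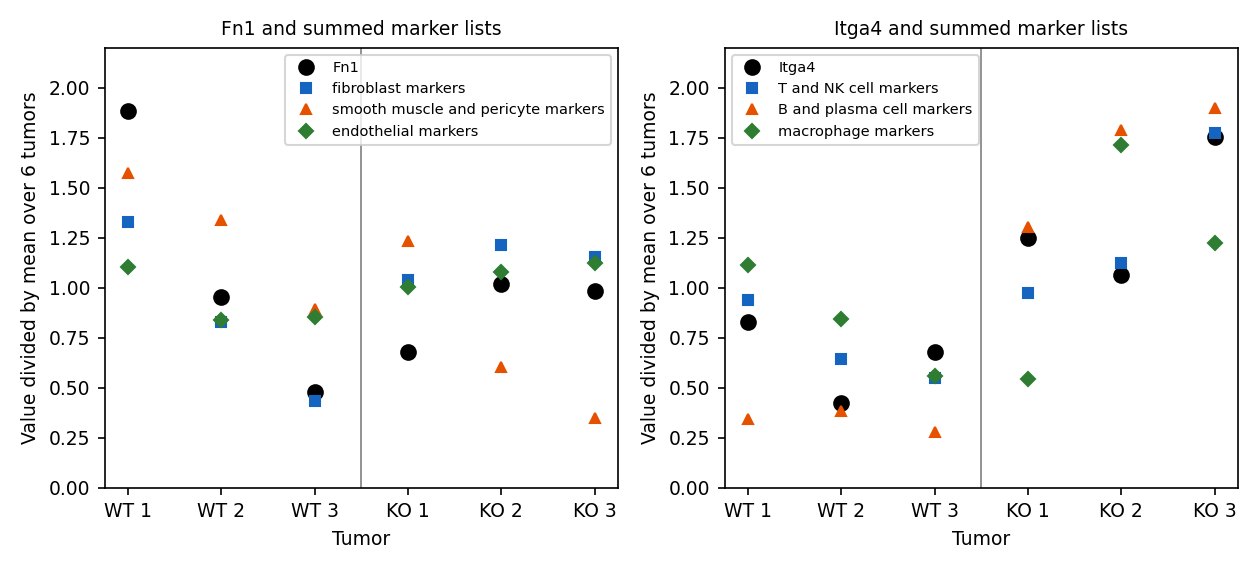
*Fn1* (left) and *Itga4* (right), as black circles, with summed marker lists, each divided by its mean over the 6 tumors, for WT tumors 1 to 3 and *Tgm2* knockout tumors 1 to 3. *Fn1* and the fibroblast sum are both highest in WT tumor 1 and lowest in WT tumor 3. Of the genes in that sum, *Col1a1*, *Col1a2* and *Pi16* alone are highest in WT tumor 1. The extremes are shared by the sums of other integrin ligands, other heparan sulfate proteoglycans and adhesion adaptors, which are not drawn. The B and plasma cell sum is higher in each knockout tumor than in each WT tumor, as *Itga4* is. The same holds for the sums of T and NK cell markers and of white adipocyte markers.

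Further marker lists were summed in the same way. The 25 white adipocyte markers, led by *Lpl*, summed to 70778, 82142 and 56518 normalized counts across the WT tumors and 82718, 285495 and 183898 across the knockout tumors, with 1 gene called higher, 15 higher without overlap and 1 (*Cidea*) at 0 in at least 1 tumor. The 11 neutrophil markers summed to 718, 4585 and 52665 across the WT tumors and 4208, 5047 and 886 across the knockout tumors. Nearly all of the sum in WT tumor 3 was *Ltf*, and *Ly6g*, *Elane*, *Camp* and *Ngp* were listed at 0 in at least 1 tumor. The 12 ovarian epithelial and mesothelial markers, led by *Wt1*, summed to 73053, 85263 and 86375 across the WT tumors and 67463, 63188 and 71484 across the knockout tumors, with 0 called and *Krt8* and *Krt19* lower without overlap.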

How the data were processed

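RNA of 3 WT and 3 *Tgm2* knockout tumors was sequenced by the authors, who quantified transcripts with kallisto (0.46.2 with GRCm38, per the submitters' processing notes), summed them to genes, removed genes of low expression and scaled by DESeq2 size factors. The deposited values were taken as normalized counts, a signal that scales with read number. The table is named TPM, but its columns do not share a total, so they were not read as TPM, and the test planned for TPM on a log scale was kept. No count model was fitted, since the step of 1 read could be read from the values only where a gene has a single transcript. Scaling by size factors sets the tumors to one scale and hides any change in total RNA.

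Values were analysed as log2(value + 1), which understates the change of low genes. Genes that reached 1 in 3 or more tumors were kept (19667 of 20076) and fitted with limma 3.58.1 in R 4.3.3, letting the variance follow mean expression and using no covariate. P-values are two-sided and were adjusted by Benjamini-Hochberg over all genes fitted. Exact permutation tests used scipy 1.17.1 in Python 3.11.15. Each column was matched to its tumor by group and replicate number, and no pair of tumors shared identical values above 0 (0 in each pair). The 6 tumors had similar depth, with 1 read worth 0.939 to 1.095 normalized counts. On simulated data, 50.5% of 200 genes changed by a log2 fold change of 2 were recovered with 3 false calls (16672 genes), and 78.5% at a log2 fold change of 4 with 11 false calls (16670 genes).

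The members and all gene lists were chosen with earlier results of these data known. Besides the 10 genes and *Tgm2*, the text names the most abundant gene of each marker list and the 5 genes most like *Fn1*. From each pathway list it names the 2 genes with the highest mean and the 2 with the smallest p. *Epcam*, *Cdh1*, *Pax8*, *Krt8*, *Krt19*, *Upk3b*, *Lrrn4*, *Col1a1*, *Col1a2*, *Pi16* and genes listed at 0 were named after their values were seen. The lists were other integrin alpha and beta subunits, ligands, heparan sulfate proteoglycans, adhesion adaptors, TG2 partners and markers of 9 cell types; 1 further marker list is not reported here. Alternative settings varied the pseudocount, filter, scaling, variance model, tumor weights and thresholds, added a replicate block or an adipocyte covariate, and dropped the tumors singly. Positions and sequences are from GENCODE M21, matched by symbol.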

Additional observations from a re-analysis of the deposited data

How the results depend on the processing

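Over 16 alternatives, 147 of 160 log2 fold changes of the 10 genes kept their direction and their side of an adjusted p of 0.05, 13 changed sign, and 0 genes passed adjustment under any of them. *Itga4* stayed positive, from 0.82 without WT tumor 2 to 1.72 with the adipocyte covariate, and was under 1 also without knockout tumor 3 (0.89). *Tgm2* stayed negative, from -1.17 without knockout tumor 3 to -0.93 without knockout tumor 1. The sign of *Fn1* changed without WT tumor 1 (0.39) and without knockout tumor 1 (0.08), with a range of -0.61 to 0.39 over the fits that left out 1 tumor. Without WT tumor 3 and without WT tumor 1 in turn, *Itga5* gave -0.41 and 0.11, *Itgb1* -0.37 and 0.18, *Itgb3* -0.57 and 0.055, and *Ptk2* -0.15 and 0.14. *Itgb1* also gave 0.10 without WT tumor 2 and 0.07 without knockout tumor 1, and *Itgb3* 0.03 without knockout tumor 3. *Itgb5* gave -0.17 with the adipocyte covariate. *Ptk2* gave -0.0032 with quantile normalization, -0.024 with tumor weights and -0.19 without knockout tumor 3. *Sdc4* moved to -1.46 with the adipocyte covariate, where it was the second gene beside *Itga4* with an unadjusted p under 0.05, and to -0.13 without WT tumor 2. The median of the 10 genes moved to -0.35 with that covariate and lay between -0.39 (WT tumor 3 left out) and 0.12 (WT tumor 1 left out). The count of genes higher in knockout tumors was 20, and became 5 with the replicate block, 4 with no variance trend, 0 with the adipocyte covariate (0 lower) and 491 with unadjusted p, where 305 were lower. Over the fits without 1 tumor it ranged from 2 (without WT tumor 2) to 14, and the lower count from 0 to 1. The fits without 1 tumor hold fewer tumors, and the adipocyte covariate cannot be separated from genotype. The causes of these changes were not tested. The correlations between same-numbered tumors were of mixed sign (r of -0.196, 0.284 and -0.307), and the replicate block joins tumors by their number alone. Values without WT tumor 3 for ranges, likeness to *Fn1* and other named genes were added after seeing the data.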

Other observations

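Contractile genes of smooth muscle differed among the knockout tumors, and were named after their values were seen. *Tagln*, which encodes transgelin, had 18854, 27320 and 23830 normalized counts across the WT tumors and 15043, 9948 and 4640 across the knockout tumors, without overlap (log2 fold change -1.38, adjusted p = 0.670 from limma). *Myh11*, the smooth muscle myosin heavy chain, had 11171, 4033 and 4148 across the WT tumors and 9608, 1496 and 656 across the knockout tumors, so that knockout tumor 1 was within the WT range and knockout tumors 2 and 3 were below it. *Cnn1* (calponin) had the same order among knockout tumors, at 4269, 1157 and 153. Neither *Myh11* nor *Cnn1* passed adjustment, with log2 fold changes of -1.44 and -1.89. *Acta2*, *Des* and *Kcnj8* of the 10 smooth muscle and pericyte markers also shared this order, while *Rgs5*, *Cspg4*, *Mcam* and *Notch3* did not. The pericyte gene *Rgs5* was lowest in knockout tumor 1 (2499, 4425 and 3864 across the knockout tumors, log2 fold change 0.04), and *Notch3* was highest in knockout tumor 3 (1128, 740 and 1367, log2 fold change 0.61).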
